A study of Drosophila melanogaster with 36 samples.

Results

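The genes described here encode the proteins of the cytosolic small (40S) ribosomal subunit of the fly. The list was taken as 38 gene identifiers, from sta and RpS2 to RpS30 with their a and b copies. Of these, 37 had a line in the table and all 37 could be tested, among 13791 genes tested of 13820 gene identifiers on the arrays. No line matched RpS28a (CG15527), which was not analysed here. Thoraxes were taken at days 2, 6 and 11 from flies in which the muscle driver turned on a PABPN1-17ala transgene (genotype UAS-PABPN1-17ala/+; Mhc-Gal4/+), and from control flies with the driver and no transgene (Mhc-Gal4/+). PABPN1-17ala is an alanine-expanded form of mammalian PABPN1, a nuclear poly(A) binding protein, and this form causes oculopharyngeal muscular dystrophy. Mhc-Gal4 drives the transgene in muscle, whereas the RNA is that of the whole thorax, so fewer cells of a type and less RNA per cell cannot be told apart.

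Each of the 6 conditions has 6 two-colour arrays. Replicates 1 to 3 carry Cy5 and replicates 4 to 6 carry Cy3 on the thorax RNA, and the other channel held a reference pooled from control flies of day 2. Extracts were made in triplicate from 50 thoraxes, so that arrays of both dyes are probably swaps of the same extracts and p-values measure the spread between arrays. The labels of the first PABPN1-17ala array of day 2 conflict (a single field gives the control genotype), and it was kept with PABPN1-17ala, as its other fields say. Levels below are log2 ratios of thorax over reference, and a log2 fold change is the difference of such ratios between groups. The log base and the direction are readings of the values. The direction rests on GstD1, an oxidative stress gene whose reporter was described as induced in these muscles. GstD1 had a log2 fold change of 2.17 at day 2 when PABPN1-17ala was set over control. No 2 of the 36 arrays held identical values, and the median over all genes lay between -0.061 and 0.042 on every array.

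The small subunit binds the mRNA and the initiator tRNA, scans to the start codon and reads codons in its decoding centre. Its proteins sit on a head, a body and a platform built of 18S rRNA, and are needed in equal numbers, one of each per subunit. Many of these genes are Minute loci, where loss of a single copy delays growth and thins the bristles. Several proteins are encoded by pairs of genes in the fly, one of which is often used mainly in the germ line.

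On each array, the median ratio of the 37 genes followed genotype and day. At day 2 it was between -0.073 and 0.022 on PABPN1-17ala arrays, against -0.13 to 0.025 on control arrays, so both groups overlapped. At day 6 it was between 0.036 and 0.22 on PABPN1-17ala arrays, against -0.63 to -0.28 on control arrays. At day 11 it was between 0.25 and 1.31 on PABPN1-17ala arrays, against -0.27 to 0.0086 on control arrays. The groups did not overlap at days 6 and 11. At day 6 the PABPN1-17ala arrays lay close to the day 2 reference while all 6 control arrays lay below it, whereas at day 11 the control arrays lay near it and the PABPN1-17ala arrays above it. The PABPN1-17ala arrays of day 11 were also the most dispersed, from the Cy3 array of replicate 4 (0.25) to that of replicate 6 (1.31).

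**Figure D1:**
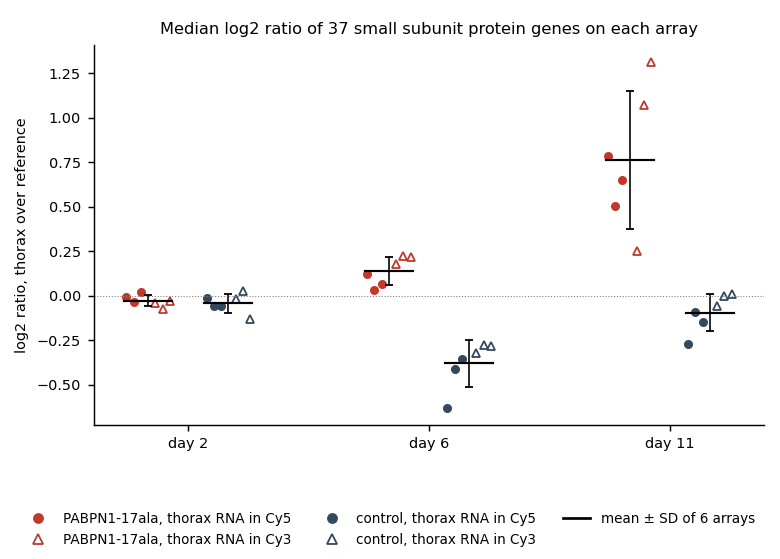
Median log2 ratio, thorax over reference, of the 37 small subunit protein genes on each of the 36 arrays (vertical axis) by day, with PABPN1-17ala left of control, filled circles for Cy5, open triangles for Cy3, and the mean with its SD over 6 arrays. The groups overlap at day 2, the control arrays of day 6 lie between -0.63 and -0.28, and the PABPN1-17ala arrays of day 11 lie between 0.25 and 1.31.

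At day 2, none of the 37 genes was called. With limma in each dye and Benjamini-Hochberg adjustment over all genes, a gene was called where the larger p of both dyes passed an adjusted 0.05. By this rule 0.667% of all genes tested were up-regulated and 0.283% down-regulated. An unadjusted p under 0.05 was reached by 0 of the 37 genes either, against 543 of the 13791 genes tested. Their median log2 fold change was 0.036, against -0.014 over all genes tested. The largest value was that of RpS27 (CG10423), a zinc-binding protein of the platform, at 0.36, and the smallest that of RpS14b (CG1527) at -0.23, both with an adjusted p of 1 in limma. Ratios of RpS27 were 0.0077, 0.12 and 0.20 at the lowest, the median and the highest PABPN1-17ala array, against -0.42, -0.22 and -0.033 in control. The 6 PABPN1-17ala arrays of RpS27 thus lay above the control arrays without the call. Without the PABPN1-17ala array of conflicting labels, the count at day 2 was again 0 and the median 0.041.

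At day 6, 8 of the 37 genes were up-regulated in PABPN1-17ala thoraxes and 0 were down-regulated, against 0.935% and 0.667% of all genes tested. Their median log2 fold change was 0.62 (1.54-fold), against -0.0078 over all genes. The called genes were RpS5a, RpS15, RpS19a and RpS27A of the head, RpS4 and RpS9 of the body, and RpS26 and RpS27 of the platform. RpS5a (CG8922), whose protein lies where the mRNA leaves the subunit, and RpS27 had the largest log2 fold changes among the called genes (both 1.25, adjusted p = 0.00449 and 0.0142 in limma). Next among them came RpS19a (CG4464), a head protein needed to mature the 18S rRNA (0.96, adjusted p = 0.00993). The smallest called values were those of RpS15 (CG8332), a head protein reaching towards the decoding centre (0.73), RpS27A (CG5271), made as a fusion with ubiquitin (0.78), and RpS9 (CG3395), a body protein that binds the rRNA early in assembly (0.79).

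RpS5a had ratios of 0.42, 0.64 and 0.44 on the Cy5 arrays and 1.11, 1.05 and 0.93 on the Cy3 arrays of PABPN1-17ala at day 6. In control flies of that day they were -0.63, -0.64 and -0.72 with Cy5 and -0.18, -0.38 and -0.35 with Cy3. All PABPN1-17ala arrays lay above all control arrays, and in both groups the Cy3 arrays lay above the Cy5 arrays. Within each dye the log2 fold change was 1.16 ± 0.20 (SE) with Cy5 and 1.33 ± 0.16 with Cy3. RpS27 gave 0.36, 0.60 and 0.65 at the lowest, median and highest PABPN1-17ala array, against -0.86, -0.64 and -0.52 in control, again without overlap. RpS15 gave 0.21 to 0.48 in PABPN1-17ala thoraxes, against -0.57 to -0.24 in control.

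The count at day 6 depended on single arrays: 4 genes were called without control replicate 4, and also 4 without PABPN1-17ala replicate 5 or 6. RpS9 lost its call (adjusted p = 0.046) without any one of the 12 arrays compared, whereas RpS5a, RpS15 and RpS27A kept theirs in all 12.

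At day 11, 15 of the 37 genes were up-regulated and 0 down-regulated, against 0.754% and 0.428% of all genes tested, and the median log2 fold change was 0.93 (1.90-fold), against 0.032 over all genes. The 8 genes of day 6 were all called again, and RpS13, RpS16, RpS18, RpS24, RpS28b and RpS30 were among those added. The largest called values were those of RpS24 (CG3751), a body protein (1.48), RpS13 (CG13389), a platform protein (1.45, adjusted p = 0.00467), and RpS5a (1.45, adjusted p = 0.00868). The smallest were those of RpS4 (CG11276), a body protein bound early to the rRNA (0.86, adjusted p = 0.0172), RpS27A (1.00) and RpS28b (CG2998), which lies at the mRNA exit (1.09). RpS30 (CG15697), made as a fusion with a ubiquitin-like protein, had 1.12 (adjusted p = 0.041), and RpS26 (CG10305), at the mRNA exit, had 1.32 (adjusted p = 0.00321).

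RpS15 had the smallest adjusted p of the 37 genes at day 11. Its ratios were 1.49, 1.40 and 1.01 with Cy5 and 1.40, 1.94 and 1.94 with Cy3 in PABPN1-17ala thoraxes. In control thoraxes they were -0.012, 0.30 and 0.26 with Cy5 and 0.29, 0.52 and 0.52 with Cy3. The lowest PABPN1-17ala array thus stood above the highest control array, and the log2 fold change was 1.11 ± 0.11 (SE) with Cy5 and 1.32 ± 0.12 with Cy3 (mean 1.22, adjusted p = 0.000227 in limma). RpS13 had 1.61, 1.52 and 1.12 with Cy5 and 0.40, 1.17 and 1.41 with Cy3 in PABPN1-17ala thoraxes. In control thoraxes RpS13 had 0.21, -0.093 and -0.25 with Cy5 and -0.61, 0.15 and -0.91 with Cy3. The groups did not overlap, and the Cy3 array of replicate 4 was the lowest of PABPN1-17ala. For RpS24 the PABPN1-17ala arrays ran from 0.34 through a median of 1.25 to 1.46, against -0.66, -0.44 and -0.0023 in control, also without overlap.

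The count of 15 at day 11 became 8 without control replicate 4 or 5, 5 without PABPN1-17ala replicate 5 or 6, 4 after quantile normalization within a dye and 0 where the fit held the arrays of day 11 alone. RpS5a, RpS13, RpS15 and RpS27A kept their calls without any one of the 12 arrays, whereas RpS4 lost its call without any of 5 of them, RpS28b without any of 4 and RpS24 without PABPN1-17ala replicate 5 or 6.

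**Figure D2:**
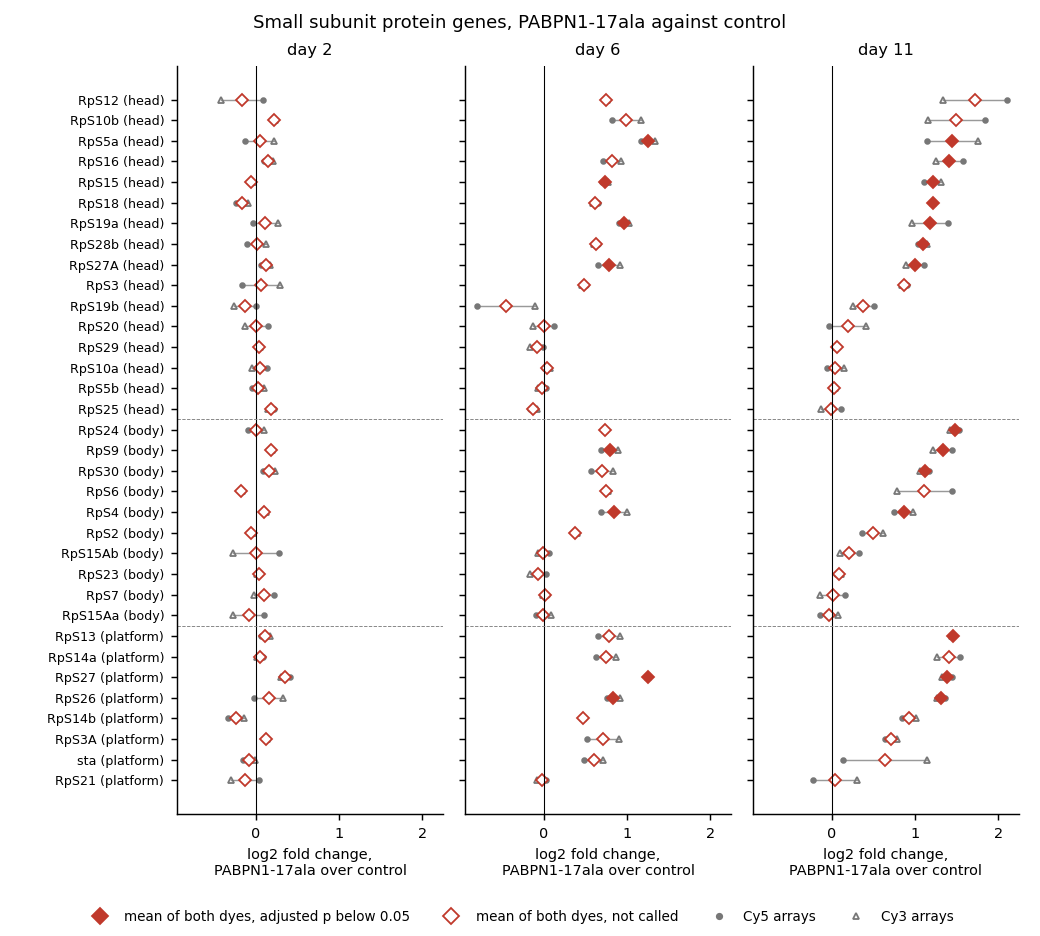
Log2 fold change, PABPN1-17ala over control (horizontal axis), of 34 of the 37 genes at days 2, 6 and 11, grouped by head, body and platform. Diamonds are the mean of both dyes, filled where called, and small symbols are the Cy5 and the Cy3 arrays alone. No diamond is filled at day 2, 8 are at day 6 and 14 at day 11, all to the right of 0.

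No part of the subunit carried the calls alone. At day 11, 7 of 17 head genes, 5 of 12 body genes and 3 of 8 platform genes were up-regulated, with median log2 fold changes of 1.00, 0.68 and 1.12. At day 6 the counts were 4, 2 and 2. This grouping was made with the results known and was not tested.

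Several genes with large values at day 11 were not called. RpS12 (CG11271), a head protein through which cells with too few ribosomal proteins are recognised in fly tissues, had the largest log2 fold change of all (1.72, adjusted p = 0.43). Its PABPN1-17ala arrays ran from 0.38 through a median of 1.39 to 2.34, against -1.89, -0.60 and 1.54 in control, so the groups overlapped widely, although within a dye 5 of the 6 PABPN1-17ala arrays lay above all control arrays. RpS10b (1.84 in Cy5 and 1.16 in Cy3, adjusted p = 0.121) and RpS14a (1.41, adjusted p = 0.057) were likewise uncalled. sta (CG14792), the small subunit relative of the laminin receptor, split by dye, with 0.14 in Cy5 and 1.15 in Cy3 (adjusted p = 1). RpS3 (CG6779), which lines the mRNA entry, had 0.87 (adjusted p = 0.279).

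Over the mean of the 3 days, 18 of the 37 genes were up-regulated and 0 down-regulated, against 1.75% and 1.44% of all genes tested. This comparison holds the same arrays as the single days. The largest called values were those of RpS27 (1.00, adjusted p = 0.000808), RpS5a (0.91) and RpS10b (CG14206; 0.90), and the smallest those of RpS3A (CG2168), a platform protein (0.52), RpS18 (CG8900), a head protein (0.56), and RpS28b (0.58). RpS3A, RpS10b and RpS14a were called here and on no single day. RpS3A had 0.71 at both day 6 and day 11. The median of the 37 genes was 0.56, against 0.0070 over all genes.

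Whether the genotype effect itself differed between day 11 and day 2 was tested as the interaction. RpS15 alone was called, with an effect larger by 1.27 at day 11 (adjusted p = 0.00146 in limma), against 0.0798% of all genes up-regulated and 0.210% down-regulated by this test. Within a dye the RpS15 interaction was 1.19 ± 0.15 (SE) in Cy5 and 1.35 ± 0.17 in Cy3. Its ratios at day 2 were -0.19 to 0.022 in PABPN1-17ala thoraxes, against -0.24 to 0.11 in control, which overlapped. The median interaction of the 37 genes was 0.88, against 0.049 over all genes. An unadjusted p under 0.05 was reached by 20 of the 37, against 619 of the 13791 genes tested. The count depended on the test. A single fit of all arrays with dye as a covariate called 23 of the 37 genes. Means of assumed dye-swap pairs called 22 and the Cy5 arrays alone 20. The single fit counts arrays of both dyes as separate replicates, although they are probably swaps of the same extracts. The share of all genes called by these alternatives is not given here. The count of 1 became 2 without control day 11 replicate 2 or 5, and 15 without PABPN1-17ala day 11 replicate 4, the lowest array of its condition.

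In control flies, 0 of the 37 genes were called between day 2 and day 11, against 0.660% of all genes up-regulated and 0.892% down-regulated. Their median log2 fold change was -0.037 (all genes -0.027). An unadjusted p under 0.05 was reached by 0 of the 37, against 743 of the 13791 genes tested. The extremes were RpS15 at 0.31 and RpS3 at -0.42, both with an adjusted p of 1. The dyes differed in sign here, with a median of -0.15 in Cy5 and 0.11 in Cy3. Taken alone they called 7 and 6 of these genes, counts for which the share over all genes is not given. Only genes with the same sign in both dyes could be called, here 6 that were higher at day 11 and 4 that were lower. The count of 0 therefore does not show that these genes were stable.

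In PABPN1-17ala flies, 16 of the 37 genes were up-regulated at day 11 against day 2 and 0 down-regulated, against 2.13% and 1.81% of all genes tested. The median log2 fold change was 0.88 (1.84-fold), against 0.014 over all genes. RpS12 had the largest called value (1.72, adjusted p = 0.0397), followed by RpS15 (1.59, adjusted p = 3.17e-06) and RpS18 (1.40), and RpS9 (0.85), RpS27 (0.92) and RpS27A (0.95) had the smallest. RpS15 ratios were 1.01 to 1.94 at day 11, against -0.19 to 0.022 at day 2. RpS12 ran from 0.38 to 2.34 at day 11, against -0.81 to -0.13 at day 2, without overlap. RpS12 lost its call when any of 7 of the 12 arrays was left out. The count of 16 became 14 without the day 2 array of conflicting labels, 10 without PABPN1-17ala day 11 replicate 5, and 5 where only these 2 conditions were fitted. These arrays are also those of the genotype comparison at day 11, so the counts are not independent of each other.

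The low control arrays of day 6 led to a look at day 6 against day 2 within each genotype, added after the data were seen. In PABPN1-17ala flies 0 of the 37 genes were called (0.689% of all genes up-regulated, 1.09% down-regulated), with a median of 0.24. In control flies 0 were called either (0.225% up-regulated, 0.355% down-regulated), with a median of -0.33. In each genotype 2 of the 37 genes had an unadjusted p under 0.05. Over the 13791 genes tested, 468 did in control flies and 815 in PABPN1-17ala flies. RpS5a had the lowest value in control (-0.84, adjusted p = 0.296), and RpS12 the highest in PABPN1-17ala (0.52, adjusted p = 1). Thus the day 6 difference between genotypes was called for 8 genes while neither genotype's own change from day 2 was. Under the same alternatives (single fit, means of pairs and Cy5 alone), 4, 6 and 11 genes were called in control flies. Between genotypes at day 6 they called 20, 19 and 16. Shares over all genes are not given for these counts either. The 24 genes with a day 6 log2 fold change above 0.3 were picked on values that enter the next counts, which are no test. In both dyes, 20 of them were lower in control at day 6 than at day 2, against 22.2% of all genes tested. In PABPN1-17ala flies 18 were higher in both dyes, against 33.7% of all genes tested.

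**Figure D3:**
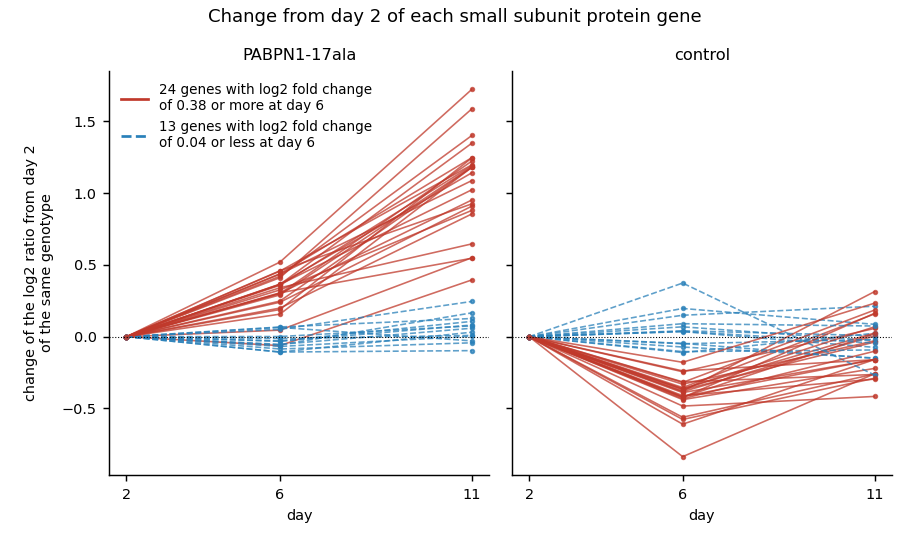
Change of the log2 ratio from day 2 of the same genotype (vertical axis) for each of the 37 genes at days 2, 6 and 11, PABPN1-17ala left and control right, as means of both dyes. Solid lines are the 24 genes with the larger log2 fold changes at day 6 and dashed lines the other 13, a split that was made on the day 6 values themselves. In control the solid lines dip at day 6 and return, with 0 genes called, and in PABPN1-17ala they are highest at day 11.

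The 37 genes fell into 2 sets. In order of the day 6 log2 fold change there was a gap between 0.041 (RpS10a) and 0.38 (RpS2), with 13 genes below it and 24 above. The 13 included RpS5b, RpS10a, RpS19b, RpS20, RpS25 and RpS29 of the head, RpS7, RpS15Aa, RpS15Ab and RpS23 of the body, and RpS21 of the platform. At day 11 their log2 fold changes were between -0.028 and 0.38 (median 0.070), against 0.49 to 1.72 (median 1.21) for the 24. They also moved little over the whole series: the SD over the 36 arrays was 0.12 to 0.37 for the 13 and 0.31 to 0.88 for the 24, against a median of 0.17 over all genes. RpS23 (CG8415), a protein of the decoding centre, and RpS29 (CG8495), a zinc-binding head protein, both had an SD of 0.12. In 5 of the 13, RpS5b, RpS10a, RpS15Aa, RpS15Ab and RpS19b, the gene is one of a pair, whereas RpS7, RpS20, RpS21, RpS23, RpS25 and RpS29 are single genes in this list. The split was made on the values and has no test. Signal intensities are not used here, so a probe that does not respond cannot be told apart from a gene that did not change.

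Paralogs were compared by the difference of their ratios, a minus b, on the same arrays, which asks whether both copies changed alike and not which is more abundant. Genotype labels were permuted exactly within each day and dye (two-sided), and p-values were adjusted over the 10 tests of 5 pairs. In 3 pairs the copies differed in their genotype effect over the 3 days. The copy with the smaller effect (RpS5b, RpS10a or RpS19b) was in each case a gene below the day 6 gap. For such a gene, a probe that does not respond cannot be told apart from an unchanged level. All 3 calls were lost with medians in place of means, and most were lost when a replicate number was left out, although the sizes and directions of the differences held.

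RpS5a exceeded RpS5b (CG7014), the copy used mainly in ovaries, by 0.90 (0.72 in Cy5 and 1.08 in Cy3, adjusted p = 0.0283, exact permutation test). At day 11 RpS5a ran from 0.87 through a median of 1.56 to 2.05 in PABPN1-17ala thoraxes, against -0.62, 0.20 and 0.68 in control. RpS5b ran from -0.14 through -0.013 to 0.13, against -0.26, -0.029 and 0.19. The RpS5a groups were thus apart while the RpS5b groups coincided. The log2 fold changes of RpS5b were -0.022 at day 6 and 0.034 at day 11.

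RpS10a (CG12275) and RpS10b encode a head protein near the mRNA entry. RpS10a fell short of RpS10b by a difference of -0.86 (-0.93 in Cy5 and -0.79 in Cy3, adjusted p = 0.0283, exact permutation test). At day 11 RpS10a ran from -0.32 to 0.20 in PABPN1-17ala thoraxes, against -0.54 to 0.11 in control. RpS10b ran from 0.51 to 1.92, against -1.44 to 1.26. On RpS10b the control arrays of day 11 were thus spread over a wider range than the PABPN1-17ala arrays, and within each dye all PABPN1-17ala arrays lay above the control arrays.

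RpS19a exceeded RpS19b (CG5338) by 0.82 (0.85 in Cy5 and 0.79 in Cy3, adjusted p = 0.0283, exact permutation test). At day 6 RpS19a ran from 0.089 to 0.67 in PABPN1-17ala thoraxes, against -1.13 to -0.35 in control. RpS19b ran from -0.37 to 0.15, against -0.009 to 1.51, where the value of 1.51 was that of replicate 1 alone and the next control array had 0.17. In control thoraxes of day 2, whose RNA is also that of the reference, RpS19a had a mean of 0.43 in Cy5 and -0.55 in Cy3. This dye difference had the opposite sign on the later days. The control means of RpS19a were -0.77 in Cy5 and -0.57 in Cy3 at day 6, and -0.62 and 0.18 at day 11.

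RpS14a (CG1524) and RpS14b, platform proteins encoded by neighbouring genes on the X chromosome, both had higher values in PABPN1-17ala thoraxes at days 6 and 11. At day 11 RpS14a ran from -0.10 through 1.02 to 1.63 in PABPN1-17ala thoraxes, against -0.97, -0.44 and 0.076 in control. RpS14b ran from 0.84 through 1.40 to 1.78, against -0.27, 0.62 and 0.74. Neither was called on a single day, and their difference in genotype effect of 0.34 did not pass (adjusted p = 0.174, exact permutation test). It did when both dyes entered 1 permutation test (adjusted p = 0.00322). RpS15Aa (CG2033) and RpS15Ab (CG12324), body proteins, stayed near 0, with day 11 log2 fold changes of -0.028 and 0.21, and their effects differed by -0.13 (adjusted p = 1). Copies of a pair are close in sequence, and probe sequences were not used here, so these values may be shared between copies in part.

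Day labels, permuted within genotype, gave no difference between copies in their change from day 2 to day 11. The differences were 0.43 for RpS5a minus RpS5b, -0.64 for RpS10a minus RpS10b, -0.083 for the RpS14 pair, 0.073 for the RpS15A pair and 0.39 for RpS19a minus RpS19b (adjusted p between 0.89 and 1, exact permutation tests, in which 0.005 was the smallest p per dye for 4 pairs and 0.01 for RpS15A). For RpS10 the difference was -0.14 in Cy5 and -1.13 in Cy3. RpS28b could not be set beside its copy. It ran from 0.86 to 1.75 in PABPN1-17ala thoraxes at day 11, against -0.60 to 0.83 in control.

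**Figure D4:**
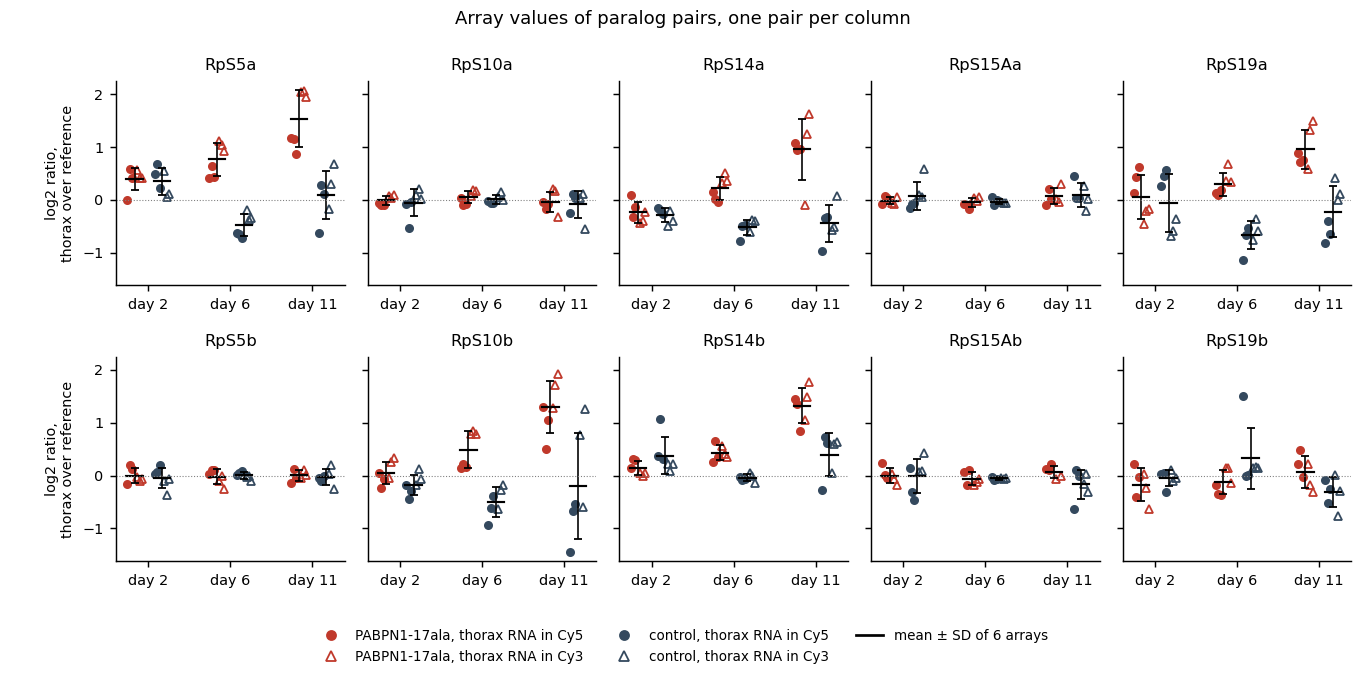
Log2 ratio, thorax over reference (vertical axis), of 5 paralog pairs on each array by day, one pair per column with the a copy above the b copy, PABPN1-17ala left of control, filled circles for Cy5, open triangles for Cy3, and mean ± SD of 6 arrays. RpS5a, RpS10b and RpS19a separate by genotype at day 6 while RpS5b and RpS10a remain near 0, and 1 control array of RpS19b stands at 1.51.

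A pair of these genes serve as references in other assays of the study. RpS2 (sop, CG5920), a body protein lining the mRNA entry, was used for normalizing RT-qPCR. RpS6 (CG10944), the body protein that S6 kinase phosphorylates, was a control transcript. The study reported RpS6 as not deregulated on its arrays, and as unaffected in RT-qPCR, where it was measured relative to sop. The study also normalized to the cuticle gene Cpr100A, with similar results at day 2. At day 6 the study used Cpr100A or sop, depending on the assay. RpS2 was not called in any comparison. Its log2 fold change was -0.052 at day 2, 0.38 at day 6 (adjusted p = 0.693) and 0.49 at day 11 (adjusted p = 0.267). At day 2 its ratios were -0.12, 0.12 and 0.30 at the lowest, median and highest PABPN1-17ala array, against -0.060, 0.14 and 0.51 in control, with wide overlap. At day 6 they were 0.070, 0.17 and 0.27, against -0.34, -0.20 and -0.093, and at day 11 0.33, 0.67 and 0.99, against -0.22, 0.19 and 0.49. At day 6 the arrays of both groups were apart, although without a call, and its value was the lowest of the 24 genes above the gap.

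The log2 fold change of RpS6 was -0.17 at day 2 (adjusted p = 1), 0.75 at day 6 (adjusted p = 1) and 1.11 at day 11 (adjusted p = 0.828). At day 2 its ratios ran from -0.41 to 0.041 in PABPN1-17ala thoraxes, against -0.46 to 0.36 in control. At day 6 they ran from -0.019 to 0.30, against -0.67 to -0.46, so the groups were apart, although without a call. At day 11 they ran from 0.34 to 1.45, against -1.47 to 1.32. The control arrays of RpS6 at day 11 thus covered the whole range of the PABPN1-17ala arrays up to 1.32, and its SE in Cy3 was 0.37. With Cy5 the groups of day 11 were apart, 0.34 to 0.70 in PABPN1-17ala thoraxes against -1.47 to -0.58 in control. With Cy3 they overlapped, 0.62 to 1.45 against -0.84 to 1.32. The high control values of RpS6 were those of replicates 4 (0.48) and 6 (1.32). The same arrays were the highest control arrays of day 11 for RpS10b (0.76 and 1.26) and RpS12 (0.40 and 1.54).

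**Figure D5:**
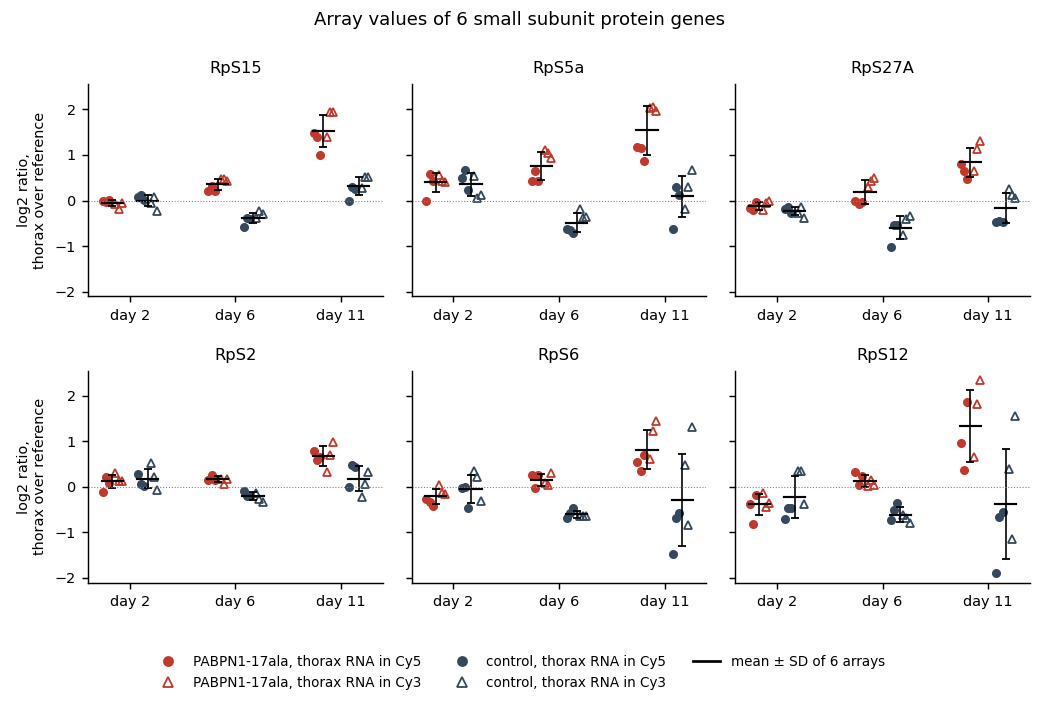
Log2 ratio, thorax over reference (vertical axis), of RpS15, RpS5a, RpS27A, RpS2, RpS6 and RpS12 on each array by day, PABPN1-17ala left of control, filled circles for Cy5, open triangles for Cy3, and mean ± SD of 6 arrays. RpS15 separates at days 6 and 11 with little spread, while the control arrays of RpS6 and RpS12 at day 11 run from -1.47 to 1.32 and from -1.89 to 1.54.

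The proteins of the large (60S) subunit gave similar values. Of 50 genes, 1 was up-regulated at day 2 (RpL27), 7 at day 6 and 16 at day 11, with 0 down-regulated. Their medians were 0.0086 at day 2, 0.54 at day 6 and 0.61 at day 11. RpL4 at day 6 (1.10) and RpL41 at day 11 (1.65) were the largest called. The day 6 gap of the small subunit genes was not empty for these genes. With its edges, 17 genes lay at or below 0.041, 27 at or above 0.38 and 6 between. The 25 genes of mitochondrial small subunit proteins had medians of -0.11 (day 2), -0.015 (day 6) and 0.19 (day 11), with 1 gene up-regulated at day 11 (mRpS18C).

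Partners of the small subunit in initiation had medians within 0.02 of 0 at the 3 days (25 genes). The beta and alpha subunits of eIF2, which carries the initiator tRNA, were higher: eIF2beta at 0.60, 0.99 and 0.56 on days 2, 6 and 11, called each day, and eIF2alpha at 0.52 on day 6. Among 14 assembly factors 2 were up-regulated, both at day 2, before any small subunit gene was called: Nopp140 (1.31, adjusted p = 0.00178) and nop5 (1.06, adjusted p = 0.000795), nucleolar proteins of rRNA modification. For nop5 the effect fell by 1.14 between day 2 and day 11 (adjusted p = 0.0186). Among 15 genes of growth control 2 were up-regulated each day and 0 down-regulated. Thor, the 4E-BP that restrains initiation, had 1.25 at day 2 and 1.17 at day 11, and S6k 0.72 at day 2. Xrp1, which acts downstream of RpS12 in flies short of a ribosomal protein, had 0.46 at day 6, and its partner Irbp18 had 0.65 at day 6 and 0.70 at day 11.

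Marker genes of other tissues were read on the same arrays. At days 6 and 11, none of 7 nerve, 5 hemocyte, 6 fat body, 4 gut and 4 cuticle genes was called between genotypes. The gut genes had a median log2 fold change of 0.39 at day 11, with the highest value of 1.93 for betaTry (adjusted p = 0.168). Of the 4, 2 had an unadjusted p under 0.05, against 826 of the 13791 genes tested. Of 7 germ line genes 1 was called, grk at day 11 (-0.46), and the germ line median was 0.025 there. Of 8 muscle genes, 0 were called at a single day, with a median of -0.17 at day 11, and fln was lower over the 3 days (-1.27). Between day 2 and day 11 the flight muscle gene fln had log2 fold changes of -2.89 in PABPN1-17ala flies and -2.36 in control flies, and Mhc had -2.39 in PABPN1-17ala flies and -1.54 in control flies, all called. Their part in the values of the small subunit genes was not tested.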

How the data were processed

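RNA of fly thoraxes was measured on 36 two-colour arrays, 6 per condition. The authors deposited 1 table of normalized log ratios, with 1 value per gene identifier and array, used here as log2 values. The background correction, normalization, log base and direction are not given in the sources used here. The table has 13843 lines. After setting aside 23 that name no gene of the fly, 12047 were paired with a RefSeq symbol (fly genome Release 6) by locus tag and 1153 by synonym, and 620 kept their identifier. Genes with at least 2 values per condition and dye were tested and 29 were not. The number of arrays limits the precision.

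Each dye (18 arrays) had its own limma fit (limma 3.58.1, R 4.3.3), in which every one of the 6 conditions had a mean. Log2 fold changes were averaged over the dyes and p was the larger of both, or 1 where signs differ, adjusted by Benjamini-Hochberg over 13791 genes, with a threshold of 0.05. Paralogs were compared by exact permutation (Python 3, numpy), with 8000 relabellings of genotype per dye (4000 for the RpS15A pair, where a value is missing). Both procedures were tested on simulated data.

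Members and lists were chosen with earlier results of these data known. Named were the paralogs, RpS2, RpS6 and RpS12, and per comparison the 3 largest and 3 smallest called values, all called where 5 or fewer were, or the extremes where none was. RpS3A, RpS30, RpS26, sta, RpS3, RpS14a and the members near 0 were otherwise named after their values were seen. Of the lists, eIF2gamma, Tor, nos and Amy-p and 7 assembly factors were not matched, and Act88F was not tested. Some members are counted here but not reported by name. Alternatives covered the fit, dye, pairing, normalization, filters, threshold and each array left out.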

Additional observations from a re-analysis of the deposited data

Results flagged for a closer look

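RpS15 was singled out because its genotype effect differed between days, by 1.27 on the log2 scale at day 11 against day 2, and it was called by limma in all 11 alternatives and without any one of the 24 arrays.

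Single arrays far from the other 5 of their condition were looked for in 150 sets of 6 arrays. The sets were those of 24 genes and of the median of the 37. Such an array was found in 6 sets, which is no more than the about 1 in 20 that chance gives. In PABPN1-17ala thoraxes these were RpS5a at day 2 on replicate 1 (-0.0050, next array 0.41), the array with the conflicting label, RpS27 at day 6 on replicate 4 (0.36, next array 0.55) and RpS3 at day 2 on replicate 5 (0.92, next array -0.012). In control thoraxes they were RpS14b at day 2 on replicate 2 (1.07, next array 0.37), RpS15Aa at day 2 on replicate 6 (0.59) and RpS19b at day 6 on replicate 1 (1.51, next array 0.17).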

How the results depend on the processing

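The direction of the median at days 6 and 11 and over the 3 days was the same in all alternatives, while the counts varied. The share of all genes called is not given for the alternatives, so their counts stand without a background. A single fit counts arrays of both dyes as separate replicates. The replicate number as a block called 8, 16 and 18 of the 37 genes at day 6, at day 11 and over the 3 days, and 2 for the difference between days. It changed 1 call of the named genes, that of RpS12 in PABPN1-17ala flies. Same-numbered arrays had a median correlation of deviations of 0.017 (20 of 90 pairs over 0.1). Arrays of other numbers had -0.0026 (20 of 180 pairs over 0.1). Whether numbers pair the arrays cannot be told from these values.

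At day 6 (8 called), a single fit of 36 arrays with dye as a covariate called 20, the Cy5 arrays alone 16, means of assumed pairs 19, quantile normalization 17, only the conditions compared 21, no moderation 5 and a threshold of 0.01 4. At day 11 (15 called) a single fit and means of pairs each called 24, no moderation 6, a threshold of 0.01 6, quantile normalization 4 and only the conditions compared 0. For the difference between days (1 called) a single fit called 23, means of pairs 22, Cy5 20 and Cy3 5. In PABPN1-17ala flies at day 11 against day 2 (16 called), no moderation called 9, a threshold of 0.01 9, quantile normalization 10 and only the conditions compared 5. In control flies (0 called) a single fit and means of pairs called 1 each, Cy5 7 and Cy3 6. For day 6 against day 2, a single fit, Cy5 and means of pairs called 4, 11 and 6 in control flies, while in PABPN1-17ala flies a single fit, means of pairs and only the conditions compared called 2 each and Cy3 3. The cause of these differences was not tested.

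Medians that moved by more than the spread of the arrays were, at day 6, 0.83 with quantile normalization and 0.71 among genes of larger spread, and 0.57 with quantile normalization for the difference between days. In control flies at day 11 they were -0.15 in Cy5, 0.11 in Cy3 and 0.068 with quantile normalization, and at day 6 -0.20 in Cy3. In PABPN1-17ala flies at day 6 they were 0.073 in Cy5, 0.41 in Cy3 and 0.30 among genes of larger spread.

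Leaving out single arrays gave 4 to 7 called genes at day 6, 5 to 17 at day 11, 17 to 19 over the 3 days, 1 to 15 for the difference and 10 to 20 for PABPN1-17ala flies at day 11 against day 2, where the median at day 6 against day 2 ran from 0.19 to 0.27.

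For the paralogs, medians in place of means gave 0.87 for RpS5a minus RpS5b (adjusted p = 0.36), -0.84 for RpS10 (0.13) and 0.87 for RpS19 (0.13), so that these calls were lost in the exact permutation test, as they mostly were without a replicate number, where the differences ran from 0.86 to 0.94, -0.93 to -0.76 and 0.70 to 0.90. A joint test of both dyes gave 0.34 for RpS14 (adjusted p = 0.00322). The day effect of RpS15A turned to -0.029 with medians and ran from -0.087 to 0.18. The fit of only the conditions compared was not run over the 3 days, where it is the same fit.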
